A study of Mus musculus with 4 samples.

Results

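Ependymal cells line the central canal of the spinal cord, and 518 of the 20454 kept cells (2.53%) were taken as such here. Members were selected on their own measured counts, so the genes of the rule are not findings. A cell was taken if it held a unique molecular identifier (UMI, a tag that counts 1 captured mRNA molecule) of at least 3 of the 7 genes Ccdc153, Tmem212, Foxj1, Rarres2, Dynlrb2, 1110017D15Rik and Rsph1. The C1q genes of microglia also had to give less than 0.5% of its UMIs. The members numbered 125 in the library labelled P301S hom CD8 KO at 30 weeks, 135 in P301S hom CD8 WT at 33 weeks, 100 in P301S hom CD8 WT at 30 weeks and 158 in P301S neg CD8 WT at 30 weeks. That was 2.43% (95% exact binomial interval 2.03 to 2.89), 2.80% (2.35 to 3.30), 2.10% (1.72 to 2.55) and 2.75% (2.35 to 3.21) of the kept cells in that order of libraries. All 4 intervals overlapped.

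The study profiled single cells from mouse spinal cord by 3' droplet RNA sequencing, with 1 library for each group and the cords of 2 mice pooled in each. The P301S transgene encodes human tau with a disease mutation, with hom and neg the labels' words for homozygous and negative, and its promoter is not given in the sources used here. CD8 KO and CD8 WT name the genotype at CD8, the co-receptor of cytotoxic T cells, so 3 groups were homozygous for the transgene and 3 were CD8 WT. The libraries are called labelled CD8 KO, hom at 33 weeks, hom at 30 weeks and neg from here on. With 1 library per group no difference between groups could be tested. The 95% intervals reflect no error but that of counting, and fewer transcripts per cell cannot be told apart from other differences between the mice or tubes.

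Ependymal cells are glia whose apical face carries motile cilia that move cerebrospinal fluid. A motile cilium is built on an axoneme of microtubules on which dynein arms, preassembled in the cytoplasm, slide the doublets, while radial spokes and the central pair coordinate the stroke and intraflagellar transport carries the parts. FOXJ1 and the RFX transcription factors switch this gene programme on, and RFX proteins bind a promoter element called the X-box. In the spinal cord these cells also keep features of progenitors such as Sox2, Sox9 and Vim, and they respond to cord injury.

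The promoters below show the elements named for the main gene groups of the text, with a match in capitals (RefSeq, GRCm38.p6, 250 bases before and 50 bases after the gene start, 5′ to 3′). Enkur (chr2:21205316-21205615, minus strand) encodes an axonemal protein and Zmynd10 (chr9:107547054-107547353, plus strand) a factor of dynein arm assembly, and both hold the X-box letters, read as GTNNCC, 3 further bases and GNAAC on either strand, with N any base. Hspe1 (chr1:55087898-55088197, plus strand) and Hsph1 (chr5:149636287-149636586, minus strand) encode chaperones and hold the letters of a heat shock element, read as 3 blocks that alternate between GAA and TTC with 2 free bases between blocks.
Enkur: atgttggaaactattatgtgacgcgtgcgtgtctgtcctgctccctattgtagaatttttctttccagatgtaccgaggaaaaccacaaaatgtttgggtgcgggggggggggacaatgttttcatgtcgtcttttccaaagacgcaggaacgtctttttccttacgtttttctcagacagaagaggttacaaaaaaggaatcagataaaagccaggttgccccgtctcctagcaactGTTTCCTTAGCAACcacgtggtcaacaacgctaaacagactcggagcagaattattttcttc
Zmynd10: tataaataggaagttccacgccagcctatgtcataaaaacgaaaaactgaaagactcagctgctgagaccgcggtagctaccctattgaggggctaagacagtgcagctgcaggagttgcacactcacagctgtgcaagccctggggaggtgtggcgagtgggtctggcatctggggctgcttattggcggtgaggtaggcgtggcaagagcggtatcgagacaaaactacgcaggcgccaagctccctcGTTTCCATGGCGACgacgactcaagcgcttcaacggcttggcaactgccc
Hspe1: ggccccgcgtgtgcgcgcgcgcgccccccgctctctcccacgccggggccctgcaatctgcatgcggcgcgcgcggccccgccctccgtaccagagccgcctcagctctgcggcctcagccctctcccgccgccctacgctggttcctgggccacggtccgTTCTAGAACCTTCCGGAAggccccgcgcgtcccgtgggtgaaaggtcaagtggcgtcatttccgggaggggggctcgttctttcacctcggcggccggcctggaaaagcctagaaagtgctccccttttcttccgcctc
Hsph1: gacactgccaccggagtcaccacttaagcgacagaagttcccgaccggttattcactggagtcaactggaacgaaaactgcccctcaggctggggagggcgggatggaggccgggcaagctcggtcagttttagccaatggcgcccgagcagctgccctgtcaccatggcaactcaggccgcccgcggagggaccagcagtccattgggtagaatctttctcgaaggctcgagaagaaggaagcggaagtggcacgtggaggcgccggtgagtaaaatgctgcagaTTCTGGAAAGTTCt

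On either strand, the X-box letters occurred in 586 of 27025 mouse promoters (2.17%). They occurred in 5 of the 8 dynein arm assembly factor promoters in the table (62.5%), 5 of 17 radial spoke and central pair promoters (29.4%), 6 of 36 of axonemal microtubule and inner proteins (16.7%), 4 of 25 of intraflagellar transport (16.0%) and 2 of 17 of dynein arms (11.8%). No promoter of 26 ependymal identity genes held them in this window. The heat shock letters occurred in 143 promoters of all (0.529%) and in 3 of 19 chaperone promoters (15.8%), those of Hsph1, Hspe1 and Chordc1. The capitals of Hspe1 are 2 overlapping matches, and the Hsph1 promoter also held an X-box match. A match is a match of letters only.

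The cells fitted their label by other genes of the cilium, which the rule did not use, and the progenitor gene Sox2 was also high. Enkur had 413 CPM (UMIs of a gene per 1000000 UMIs of the members of a library) labelled CD8 KO, 411 in hom at 33 weeks, 383 in hom at 30 weeks and 397 in neg, against 3.79 to 4.70 CPM in all other kept cells. The tektin gene Tekt1 had 300.96, 310, 259 and 270 CPM in the same order of libraries, and 0.465 to 0.733 in other cells. Sox2 had 980 CPM labelled CD8 KO, 1004 in hom at 33 weeks, 891 in hom at 30 weeks and 857 in neg, while other cells had 4.87 to 5.48. Each of these genes was thus far higher in members than in other cells of every library. Of 10 markers of choroid plexus epithelium, a related ciliated lining of the brain ventricles, 2 had a UMI in members labelled CD8 KO, 4 in hom at 33 weeks, 4 in hom at 30 weeks and 2 in neg, with sums of 194, 253, 203 and 169 CPM. Its defining genes Ttr and Otx2 had no UMI in the members of any library.

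The 5 marker genes belong to the rule and are given as a description. Foxj1 (chr11:116330704-116335399, minus strand) had 530 CPM (495 to 567) labelled CD8 KO, 609 (569 to 651) in hom at 33 weeks, 610 (571 to 651) in hom at 30 weeks and 597 (566 to 628) in neg. Ccdc153 had 1298, 1363, 1244 and 1390 CPM in that order, Tmem212 had 1175, 1275, 1148 and 1163, Rsph1 had 931, 998, 856 and 947, and Dynlrb2 had 680, 703, 689 and 718. All 7 selection genes were found in 410 of the 518 cells (79.2%). Cells with exactly 3 of the genes, just inside the limit, numbered 0 labelled CD8 KO, 6 in hom at 33 weeks, 4 in hom at 30 weeks and 6 in neg. Cells with exactly 2, just outside it, numbered 15, 22, 7 and 14. The axonemal microtubule and inner protein genes summed to 2347 to 2991 CPM just outside, to 3772 to 7692 CPM just inside and to 14613 to 15786 CPM in cells with all 7 genes.

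Members held 1631453 UMIs in all labelled CD8 KO, 1408247 in hom at 33 weeks, 1514364 in hom at 30 weeks and 2387046 in neg, with medians of 7547, 6037, 8907 and 9056 per cell. No barcode was shared between members of different libraries. Xist and Y-linked UMIs showed that 82 members were male and 1 female labelled CD8 KO, 47 male and 42 female in hom at 33 weeks, 0 male and 92 female in hom at 30 weeks, and 72 male and 53 female in neg, with the remainder undetermined. Sex therefore cannot be told apart from the CD8 label. Where a library held both sexes, its male and female cells came from different mice. The knockout label itself was not borne out by transcript counts, because Cd8a had 1387 UMIs in the kept cells of the library labelled CD8 KO, 73 in hom at 33 weeks, 87 in hom at 30 weeks and 58 in neg. Cd8b1 had 66, 142, 121 and 84 UMIs in the same order, and 3' tags can lie outside a deleted part of a gene. In members Cd8a had 5 UMIs labelled CD8 KO and none in the other libraries.

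RNA of other cell types reached some members. Cells with over 0.5% of their UMIs from endothelial, oligodendrocyte, fibroblast, pericyte, erythroid or neutrophil markers numbered 5 labelled CD8 KO, 15 in hom at 33 weeks, 3 in hom at 30 weeks and 13 in neg, and 3 further cells of hom at 30 weeks had over 1% from astrocyte markers. Some list counts and folds are also given without these 39 cells, but the results for cells split by sex are not. The endothelial markers summed to 606, 66.7, 133 and 907 CPM in the members of those libraries, and the neutrophil markers to 33.7, 320, 129 and 3568. Erythroid markers summed to 4937, 1845, 1055 and 4841 CPM, of which 1 cell held 98.3%, 77.1%, 84.2% and 53%. Activated microglia markers, a list that includes Apoe, Ctsb and Ctsd and was not used to leave cells out, summed to 2875, 3242, 3156 and 2429 CPM and passed 0.5% of the UMIs in 18, 31, 15 and 24 cells. T and NK cell markers summed to at most 3.68 CPM. The part of these cells in the differences below was not tested beyond leaving them out.

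Levels of dynein arm and tubule genes were close between libraries for some genes and not for others. Dnah12, an inner arm heavy chain, had 219 CPM (197 to 243) labelled CD8 KO, 227 (203 to 254) in hom at 33 weeks, 227 (204 to 253) in hom at 30 weeks and 237 (218 to 258) in neg. The 4 intervals overlapped. Dnah5, an outer arm heavy chain, had 137 (120 to 157), 160 (140 to 182), 151 (132 to 171) and 171 CPM (154 to 188) in that order. Zmynd10 had 101, 102, 75.3 and 89.2 CPM. Spag6l, a central pair protein, had 199, 218, 238 and 220 CPM, and Tekt4 had 104, 96.6, 93.8 and 86.7 CPM. Dnaic1, an intermediate chain of the outer arm, had 100.5, 114, 96.4 and 132 CPM, a fold of 0.73 (0.60 to 0.89) in hom over neg at 30 weeks. Ccdc39, a ruler of axonemal repeats, had 178, 197, 158 and 217 CPM, a fold of 0.73 (0.62 to 0.85) for the same pair. Both were lowest in hom at 30 weeks and highest in neg.

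Across libraries 3 ratios were formed, hom over neg at 30 weeks for the transgene, labelled CD8 KO over hom at 30 weeks for the CD8 label, and hom at 33 weeks over hom at 30 weeks for age. All 3 use the hom library at 30 weeks, so they are not independent. A gene was counted as higher or lower from a 1.5-fold ratio on, where both libraries together had at least 20 UMIs. Of 11045 genes 5.6% were higher and 8.9% lower for the transgene, of 10407 genes 7.01% were higher and 7.31% lower for the CD8 label, and of 10220 genes 6.65% were higher and 6.87% lower for age. Their median log2 ratios were -0.02, 0.01 and 0.03. Without cells holding markers of other types the same shares were 5.2% and 7.8% of 10527 genes for the transgene, 6.64% and 6.4% of 10038 for the CD8 label, and 7.49% and 5.26% of 9996 for age.

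Few genes of the cilium passed 1.5-fold in any of the 3 ratios. Over the dynein arm, assembly, radial spoke, axonemal inner protein and transport genes without the selection genes, 5 of 125 were higher and 2 lower in hom than in neg at 30 weeks, with a median log2 ratio of -0.06. Labelled CD8 KO, 2 of 124 were higher and 4 lower than in hom at 30 weeks (median 0.04). At 33 weeks 2 of 125 were higher and 3 lower than at 30 weeks (median 0.10). Of all genes 5.6% were higher and 8.9% lower for the transgene, 7.01% and 7.31% for the CD8 label, and 6.65% and 6.87% for age. The ciliary genes had more UMIs, with a median of 452 against 110 over all genes for the transgene. The shares thus do not carry equal counting error. No gene of 20 for dynein arms passed 1.5-fold in either direction for the transgene or the CD8 label, and 1, Dnah3, did for age. The genes that passed were mostly at low levels. Cfap73, whose product belongs to a dynein regulatory scaffold, had 7.97 CPM labelled CD8 KO, 13.5 in hom at 33 weeks, 3.30 in hom at 30 weeks and 10.9 in neg, from 5 to 26 UMIs. Dnaaf1, an assembly factor, had 25.7, 24.1, 36.3 and 21.8 CPM, a fold of 1.67 (1.12 to 2.48) for the transgene. Ift140, of the retrograde transport complex, had 15.3, 29.1, 31.7 and 25.6 CPM, a fold of 0.48 (0.29 to 0.80) for the CD8 label. Sntn, a protein of the ciliary tip, had 14.7, 29.1, 27.7 and 22.2 CPM, a fold of 0.53 (0.31 to 0.90) for that label. Ift172 had 60.7, 46.9, 71.3 and 56.6 CPM, a fold of 0.66 (0.48 to 0.90) for age.

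**Figure D1:**
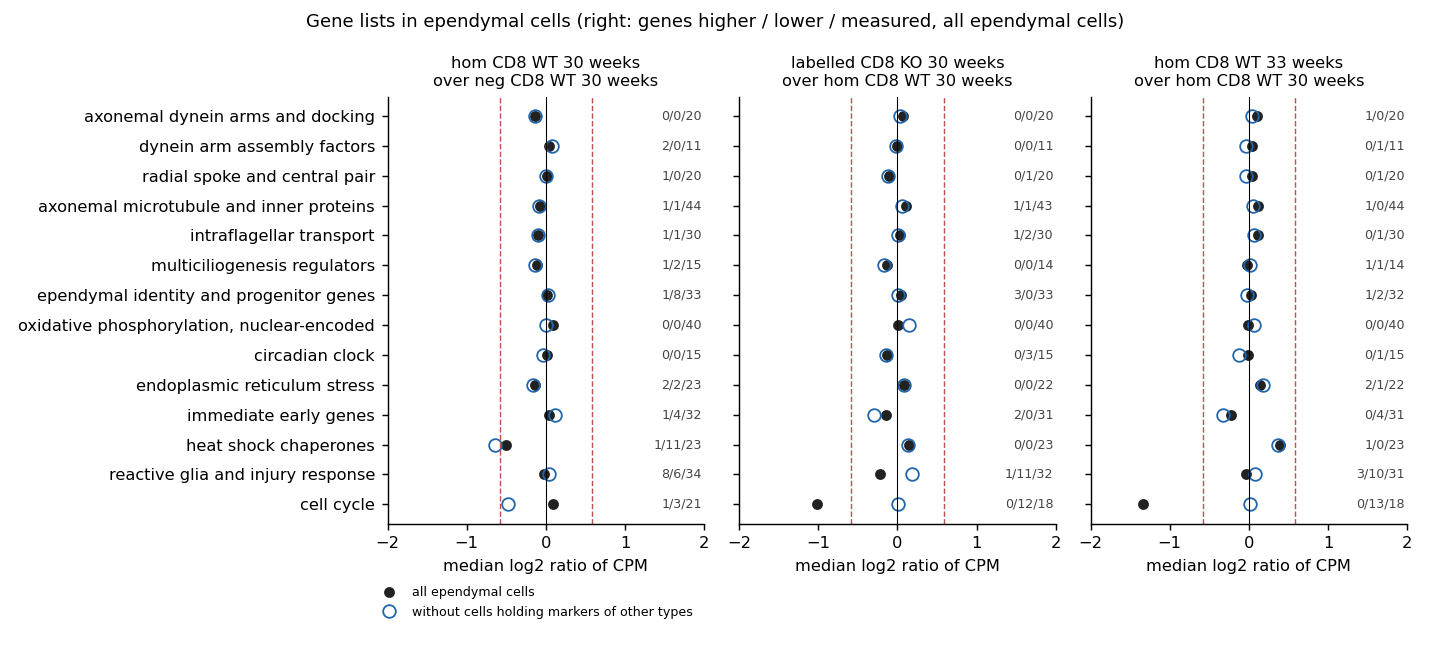
Median log2 ratio of CPM over the measured genes of 14 gene lists in each of 3 ratios between libraries; filled points are all ependymal cells, open circles leave out the cells with markers of other cell types, and dashed lines mark 1.5-fold. For all ependymal cells the 5 ciliary lists have medians of -0.13 to 0.12, heat shock chaperones sit at -0.50 in the left and 0.40 in the right panel, and the cell cycle list moves to 0.01 in the middle and right panels when those cells are left out.

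Genes of ependymal identity and secretion were abundant in every library. Clu, the secreted chaperone clusterin, had 3817 CPM labelled CD8 KO, 4154 in hom at 33 weeks, 4299 in hom at 30 weeks and 3750 in neg. Ecrg4, a precursor of secreted peptides, had 3570, 3422, 3154 and 2702 CPM in that order, so neg was lowest. Mia had 1282, 1241, 1142 and 1167 CPM, Sox9, a glial transcription factor, had 1136, 1120, 1128 and 1063 CPM, and Cd24a, a surface protein used to sort ependymal cells, had 1271, 1317, 1344 and 1298 CPM. The water channel gene Aqp4 stood out in hom at 30 weeks, at 180, 181, 283 and 171 CPM, where the astrocyte markers were also highest.

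Among regulators of multiciliation, 1 of 15 genes was higher and 2 lower in hom than in neg at 30 weeks, near the 5.6% and 8.9% of all genes, and 0 were higher and 2 lower without cells holding markers of other types. Ccno, a cyclin that drives the amplification of centrioles, had 45.4 CPM labelled CD8 KO, 66.8 in hom at 33 weeks, 40.3 in hom at 30 weeks and 65.8 in neg. Its fold was 0.61 (0.45 to 0.83) for the transgene and 1.66 (1.19 to 2.33) for age. In male and female cells of hom at 33 weeks it had 90.0 and 47.3 CPM, so the library value joined unlike mice. Rfx3 had 73.6, 70.3, 77.9 and 84.2 CPM in the order given above, with overlap of neighbouring libraries.

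In hom at 30 weeks, ependymal cells had more Vim, Mt1 and Il6 UMIs relative to all their UMIs than in neg. UMIs of heat shock chaperones were fewer by library but not in female cells alone, where 4 of 22 were higher and 0 lower (median 0.08). Of all 9585 genes in female cells, 9.84% were higher and 8.3% lower. Vim (chr2:13573927-13582826, plus strand), the intermediate filament of ependymal cells and reactive glia, had 4358 CPM (4257 to 4461) labelled CD8 KO, 4215 (4109 to 4324) in hom at 33 weeks, 4233 (4130 to 4338) in hom at 30 weeks and 3065 (2995 to 3136) in neg. The fold for the transgene was 1.38 (1.34 to 1.43), and the 3 homozygous libraries lay above neg with no overlap of intervals. Other kept cells had 1149 to 1373 CPM of Vim, with neg at 1162 within that range. Mt1, a metallothionein that binds zinc and copper, had 10339 CPM labelled CD8 KO, 10431 in hom at 33 weeks, 12811 in hom at 30 weeks and 8717 in neg, a fold of 1.47 (1.44 to 1.5) for the transgene. The identity list gave 1 gene of 33 higher, Pax6, and 8 lower, and without cells holding markers of other types 2 of 32 higher and 4 lower, where 5.6% and 8.9% of all genes, or 5.2% and 7.8% without those cells, were higher and lower. Pax6, a transcription factor of neural progenitors, had 98.1, 141, 145 and 94.7 CPM, a fold of 1.53 (1.27 to 1.86) in hom over neg at 30 weeks. In female cells alone that fold was 1.07, since female cells of neg had 137 CPM and male cells 70.9.

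Several other lists lost calls in hom over neg at 30 weeks when cells holding markers of other types were left out. Of all genes 5.6% were higher and 8.9% lower, or 5.2% and 7.8% without those cells. Of 33 genes for junctions and transport 5 were higher and 2 lower, and without those cells 0 of 30 were higher and 1 lower. Of 27 genes for secreted proteins 4 were higher and 2 lower, against 2 higher and 1 lower without those cells. Of 24 genes of the Wnt, BMP, hedgehog and Notch pathways 2 were higher and 7 lower (median -0.28), against 3 higher and 4 lower (median -0.13). Of 20 MHC class I genes 0 were higher and 4 lower (median -0.22), but without cells holding markers of other types the direction turned, with 4 of 18 higher and 0 lower (median 0.18). Of 40 genes for oxidative phosphorylation none passed 1.5-fold.

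The highest folds for the transgene were those of glial and injury genes, and they rested on few cells. Of 34 reactive glia genes, 8 were higher and 6 lower in hom than in neg at 30 weeks, and without cells holding markers of other types 2 of 28 were higher and 3 lower. Among all genes 5.6% were higher and 8.9% lower, or 5.2% and 7.8% without those cells. The counts without those cells were thus near the shares of all genes. Agt, the angiotensin precursor of astrocytes, had 3.68 CPM labelled CD8 KO, 4.97 in hom at 33 weeks, 90.5 in hom at 30 weeks and 2.09 in neg, and 67.9% of its UMIs in hom at 30 weeks were in 1 cell. A2m had 14.1, 14.2, 137 and 10.9 CPM, with 82.1% in 1 cell. Their folds without the cells of other types were 0.61 and 0.30. C3, C4b, Timp1, Serpina3n and Pla2g7 had 60.2% to 90.8% of their UMIs in 1 cell of hom at 30 weeks. Gfap (chr11:102887336-102900912, minus strand), the astrocyte filament, had 117, 121, 246 and 51.1 CPM, a fold of 4.82 (3.92 to 5.96) for the transgene that was 1.76 without those cells. The astrocyte markers summed to 1640 CPM labelled CD8 KO, 1655 in hom at 33 weeks, 2215 in hom at 30 weeks and 1355 in neg.

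The lowest ratios for the transgene also held genes of other cell types. Epas1, a hypoxia factor of endothelium, had 52.7 CPM labelled CD8 KO, 24.1 in hom at 33 weeks, 23.1 in hom at 30 weeks and 131 in neg, with a fold of 0.18 (0.12 to 0.25) that was 0.89 without cells holding markers of other types. Gkn3, known from arterial endothelium, had 97 UMIs in 9 cells of neg and none in hom at 30 weeks, where a count of 0 allows up to 1.98 CPM. Rnd1, a small GTPase that acts on the cytoskeleton, was spread more widely. It had 30.0, 26.3, 19.2 and 60.3 CPM in the order labelled CD8 KO, hom at 33 weeks, hom at 30 weeks and neg, from 144 UMIs in 50 cells of neg, a fold of 0.32 (0.21 to 0.48). Other kept cells had 30.1, 25.3, 28.3 and 65.2 CPM of Rnd1, also highest in neg. Nr4a2, a nuclear receptor and immediate early gene, had 60.7, 18.5, 22.5 and 80.9 CPM, with 102, 104, 97.5 and 208 CPM in other kept cells.

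**Figure D2:**
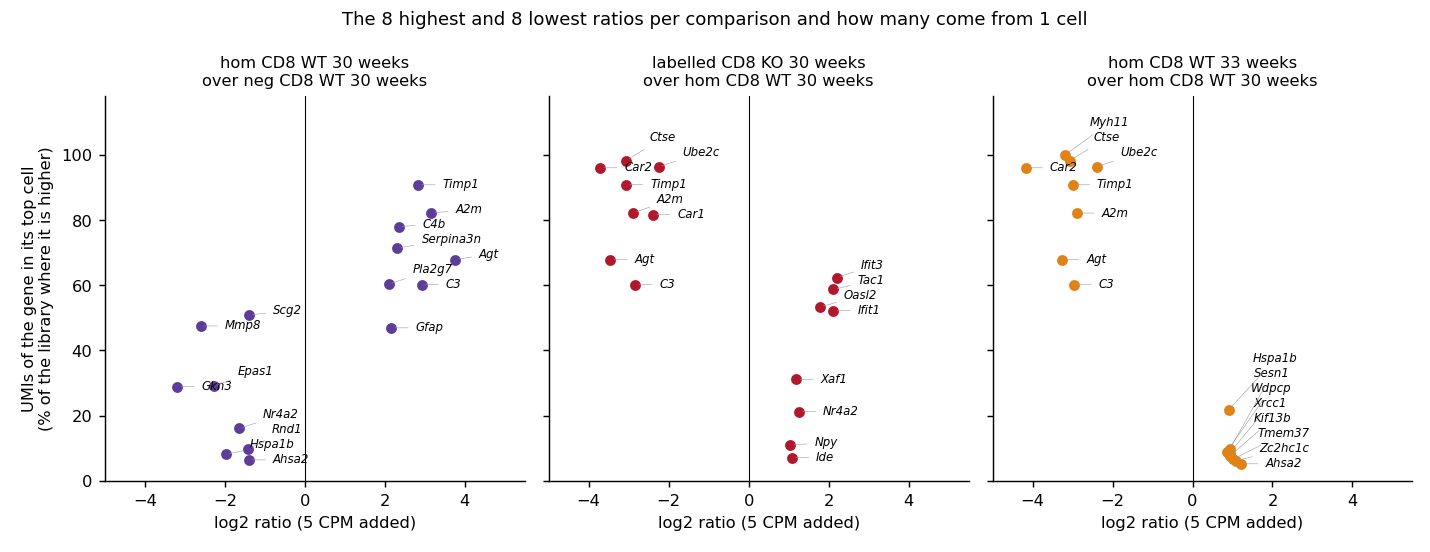
For the 8 highest and 8 lowest ratios of each comparison, the log2 ratio with 5 CPM added (x axis) against the percentage of the gene's UMIs that 1 cell held in the library where the gene was higher (y axis). The genes at the far left of the middle and right panels, such as Car2, Ctse and Ube2c, have over 90% of their UMIs in 1 cell, while Ahsa2, Ide and Npy are spread over many cells.

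Chaperones of the heat shock response, which refold damaged proteins, were lower in hom than in neg at 30 weeks by library. Of 23 genes 11 were lower and 1 higher, with a median log2 ratio of -0.50, and without cells holding markers of other types 12 were lower and 1 higher (median -0.64). Over all genes, 8.9% were lower and 5.6% higher, or 7.8% and 5.2% without those cells. Hspa1b (chr17:34956436-34959238, minus strand), the inducible HSP70, had 30.7 CPM labelled CD8 KO, 49.0 in hom at 33 weeks, 23.8 in hom at 30 weeks and 109 in neg. Hsph1, which recycles HSP70, had 263, 306, 229 and 437 CPM, a fold of 0.52 (0.46 to 0.59) for the transgene. Hspb1, a small chaperone, had 248, 248, 191 and 495 CPM, and Hspe1, the mitochondrial co-chaperone, had 350, 427, 302 and 568 CPM. In all 4 of these genes neg stood above every homozygous library. The promoters printed above for Hspe1 and Hsph1 hold the heat shock letters, and that of Hspb1 does not appear among the 3 matches.

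Within neg, chaperone levels were high in male cells and low in female cells. Hspb1 had 264 CPM in male cells labelled CD8 KO, 275 in male and 195 in female cells of hom at 33 weeks, 184 in female cells of hom at 30 weeks, 644 in male cells of neg and 188 in female cells of neg. Hspa1b had 32.9, 20.9, 66.9, 24.3, 177 and 2.44 CPM in that order of cells, so the highest and the lowest level were both in neg. Hsph1 had 268, 317, 311, 229, 595 and 211 CPM. Between male and female cells of neg 19 of 22 chaperones were higher and 1 lower, with a median log2 ratio of 1.18, where 11.7% of 9363 genes were higher and 9.35% lower. Between male and female cells of hom at 33 weeks 0 of 22 were higher and 2 lower (all 7225 genes 7.82% and 11.1%). Female cells of hom at 30 weeks over female cells of neg gave 4 of 22 higher and 0 lower (all 9585 genes 9.84% and 8.3%), median 0.08. Over male cells of neg they gave 0 higher and 19 lower (all 10129 genes 7.87% and 8.49%), median -0.93, and male cells labelled CD8 KO over male cells of neg gave 0 higher and 17 lower (all 9969 genes 8.75% and 8.34%), median -0.89. Each set of cells came from at most 2 mice, so mouse, sex and transgene cannot be told apart here. Other kept cells had 21.1, 26.8, 16.7 and 75.7 CPM of Hsph1 in the 4 libraries labelled CD8 KO, hom at 33 weeks, hom at 30 weeks and neg.

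**Figure D3:**
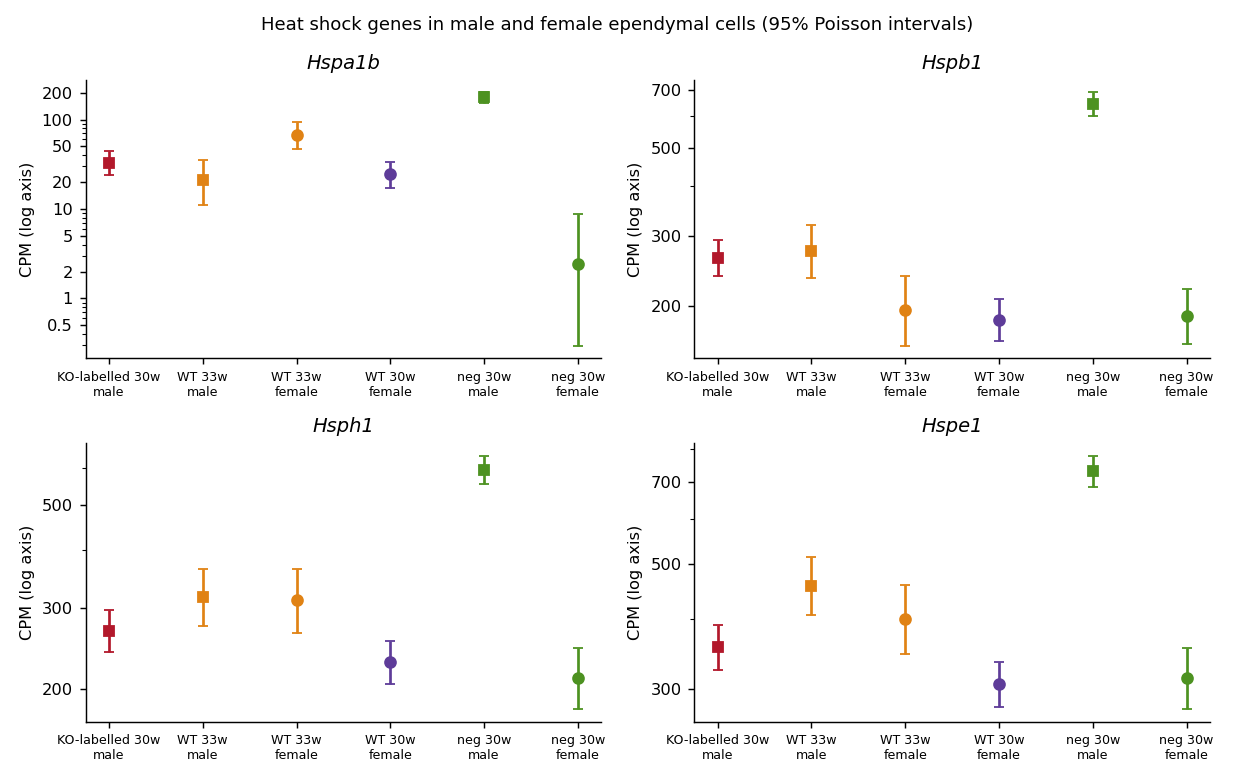
CPM (log axis) of 4 heat shock genes in male (squares) and female (circles) ependymal cells, with 95% Poisson intervals; colours mark the library. Male cells of neg stand above all other sets for each gene, for example at 644 CPM of Hspb1, while female cells of neg at 188 CPM lie among the homozygous sets.

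Splitting the cells by sex gave 4 homozygous sets (male labelled CD8 KO, male and female at 33 weeks, female at 30 weeks) against male and female cells of neg. Cells holding markers of other types were kept in these sets and numbered 5, 5, 1, 4, 5 and 1 in that order. Over 7471 genes with at least 100 UMIs, 6.77% were higher in all 4 homozygous sets than in both neg sets with no overlap, and 5.96% were lower. At a margin of 1.5-fold the shares were 0.0937% (7 genes) and 0.12% (9 genes). The 7 genes higher were Serping1, Bend5, Tmem176b, Tmem176a, Trf, Gm10076 and Gstp1, and they were chosen after their values were seen. Serping1 (chr2:84765387-84775444, minus strand), the inhibitor of complement C1, had 35.9 CPM in male cells labelled CD8 KO, 37.0 in male and 19.7 in female cells at 33 weeks, 32.4 in female cells of hom at 30 weeks, 9.91 in male cells of neg and 11 in female cells of neg. For the transgene its fold was 3.09 (1.87 to 5.22). Female cells at 33 weeks held only 10 Serping1 UMIs in 4 cells, with 5 in 1 cell. The place of that set above neg thus rested on 1 cell. Other kept cells had 25.7 CPM labelled CD8 KO, 18.3 in hom at 33 weeks, 14.4 in hom at 30 weeks and 25.6 in neg, which does not follow the order of ependymal cells. Gstp1 (chr19:4035407-4037985, minus strand), a glutathione transferase, had 47.4, 38.6, 33.5, 43.9, 21.3 and 17.1 CPM in the 6 sets, a fold of 2.35 (1.58 to 3.50) for the transgene. Bend5 had 19.1, 19.3, 27.6, 20.9, 12.2 and 7.34 CPM. For Tmem176a, 1 female cell of hom at 30 weeks held 23 of 41 UMIs, so its margin rested on that cell. Trf, Gstp1 and Bend5 passed the margin narrowly, Trf with 18.9 CPM in female cells of hom at 30 weeks against 12.2 in female cells of neg. In that homozygous set 1 cell held 7 of 28 Trf UMIs. For Gstp1, 1 female cell at 33 weeks held 3 of 17 UMIs, and for Bend5, 1 male cell labelled CD8 KO held 3 of 25. Their margin without these cells was not tested. Tmem176a, Tmem176b, Trf and Gm10076 were also higher in all other kept cells of homozygous libraries than in those of neg. Trf there had 781, 592, 747 and 251 CPM and Gm10076 238, 162, 253 and 77.6 CPM, in the order labelled CD8 KO, hom at 33 weeks, hom at 30 weeks and neg.

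The 9 genes lower in all homozygous sets were mainly products of neutrophils and blood cells. S100a8, a neutrophil granule protein, had 8.41, 74.0, 23.6 and 27.0 CPM in the 4 homozygous sets, against 1022 CPM in male and 1306 CPM in female cells of neg. In female cells of neg 1 cell held 1035 of the 1068 S100a8 UMIs, and in male cells of neg 1 cell held 606 of 1341. In female cells of neg 1 cell likewise held 313 of 322 UMIs of Ngp, 111 of 113 of Ltf, 130 of 132 of Retnlg and 136 of 146 of Lcn2, so for these 5 genes the separation at that margin rested on 1 cell. The others were S100a9, Camp, Arhgdib and Vpreb3. Of these, 1 female cell of neg held 1277 of 1334 UMIs of S100a9, 126 of 133 of Camp and 25 of 32 of Arhgdib. For Vpreb3, 1 male cell of neg held 43 of 64 UMIs. The separation of these genes at that margin thus also rested on 1 cell. Neutrophil markers summed to 3568 CPM in the members of neg, as given above. S100a8 in other kept cells was 2149 CPM labelled CD8 KO, 7432 in hom at 33 weeks, 9250 in hom at 30 weeks and 9739 in neg.

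With no margin, Vim stood apart without overlap, at 4428, 4500, 3999 and 4217 CPM in the 4 homozygous sets and 3070 and 3214 CPM in male and female cells of neg. Il6 (chr5:30013114-30019981, plus strand), an inflammatory cytokine, had 102 CPM in male cells labelled CD8 KO, 116 in male and 76.8 in female cells at 33 weeks, 132 in female cells of hom at 30 weeks, 57.9 in male cells of neg and 59.9 in female cells of neg. By library it had 88.3 CPM (74.4 to 104) labelled CD8 KO, 92.3 (77.1 to 110) in hom at 33 weeks, 129 (111 to 148) in hom at 30 weeks and 54.5 (45.5 to 64.7) in neg. Its share of cells did not follow that order, with 21.6%, 25.2%, 23% and 22.2% of members holding an Il6 UMI. Cells thinned to 1000 UMIs gave 4.80%, 7.26%, 6.0% and 6.41%, with 0, 11, 0 and 2 shallower cells left out. Endothelial cells, with median depths of 5399.5, 4960.5, 5591 and 6335 UMIs, had an Il6 UMI in 0.212%, 0.366%, 0.362% and 1.01%.

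Other genes that did not overlap were higher in the homozygous sets for Sox4, a factor of immature neural cells, with 340, 487, 413 and 375 CPM against 233 and 309 CPM in male and female cells of neg. Aldoc, a glycolytic enzyme that is also in the astrocyte marker list, had 319, 312, 323 and 447 CPM against 210 and 249. Its highest value was in cells of hom at 30 weeks, the library where the astrocyte markers were also highest. Mdk, the growth factor midkine, had 214, 227, 236 and 205 CPM against 149 and 189. Of 40 nuclear genes for oxidative phosphorylation, 10 were higher without overlap and 0 lower, by small amounts, where 6.77% of all 7471 genes were higher and 5.96% lower. By library the median log2 ratio of this list for the transgene was 0.09. It was 0.00197 without cells holding markers of other types, which the sex-split sets still include. Atp5h, a subunit of ATP synthase, had 500, 466, 447 and 486 CPM against 417 and 424. Among 22 measured genes for cholesterol and lipid handling 2 were lower, Hmgcs1 and Insig1, a share near the 5.96% of all genes. Hmgcs1, an enzyme of early cholesterol synthesis, had 53.5, 35.4, 65.0 and 45.9 CPM against 86.9 and 99, a fold of 0.50 (0.38 to 0.66) for the transgene by library. Of 19 dynein arm genes 1 was higher and 5 lower, beside the same shares of all genes, 6.77% and 5.96%. Dnaic1, an outer arm chain, had 94.8, 124, 112 and 97.9 CPM against 143 and 141, while Dnah1 had 87.9, 74.0, 90.6 and 79.7 CPM against 60.2 and 69.7. Of 22 chaperones none was higher or lower without overlap.

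**Figure D4:**
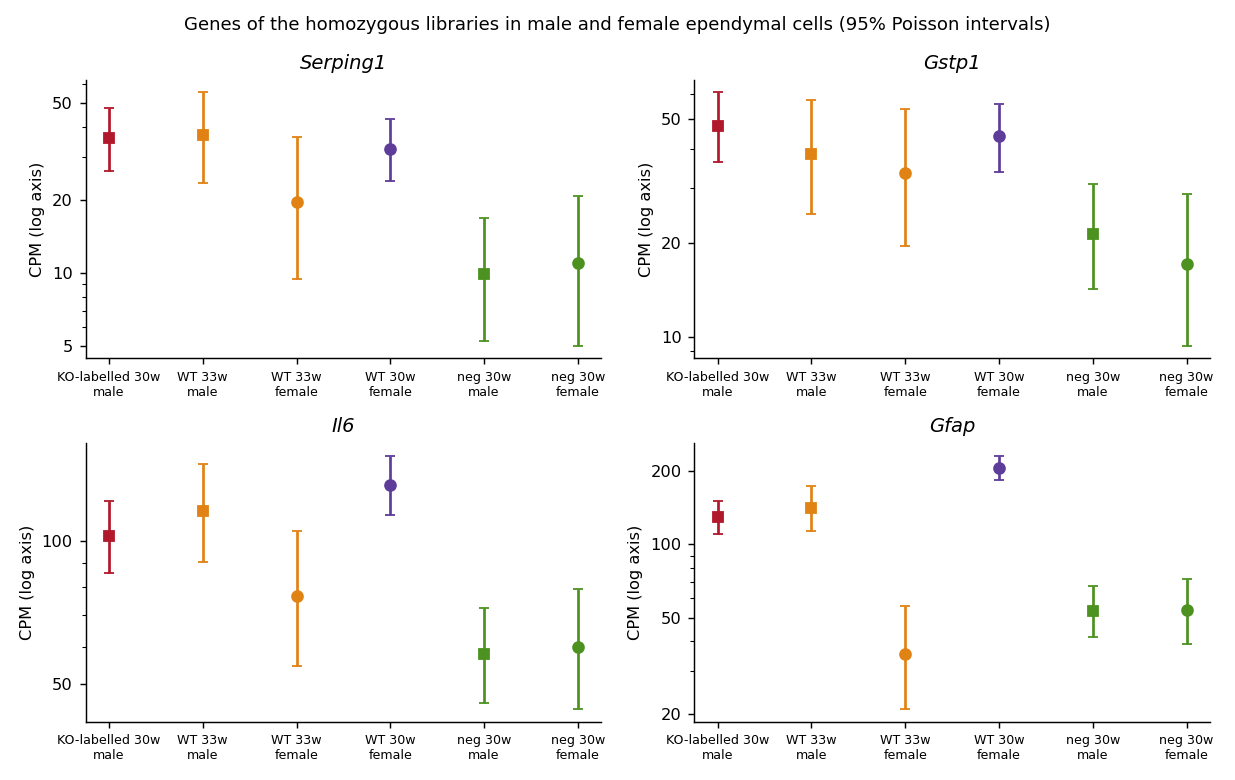
CPM (log axis) of Serping1, Gstp1, Il6 and Gfap in male (squares) and female (circles) ependymal cells, with 95% Poisson intervals; colours mark the library. Serping1, Gstp1 and Il6 are above both neg sets in every homozygous set, while Gfap in female cells at 33 weeks (35.4 CPM) is below neg (53.4 and 53.8 CPM). The Serping1 point of female cells at 33 weeks is from 10 UMIs, with 5 in 1 cell.

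Of 27 interferon response genes 18 were higher and 3 lower in ependymal cells labelled CD8 KO than in hom at 30 weeks (median log2 ratio 0.89), and 14 of 23 were higher and 2 lower without cells holding markers of other types. Of all genes 7.01% were higher and 7.31% lower. Labelled CD8 KO, 1 cell held 62.3% of the UMIs of Ifit3, 52.2% of Ifit1 and 53.3% of Oasl2. Beyond that list the named genes given here were at low levels, and their number was set by the naming rule. For the CD8 label 119 genes spread over many cells were higher and 117 lower. These kept 1.5-fold without their top cells and without cells holding markers of other types. The same rule gave 157 higher and 108 lower for age, and 82 higher and 122 lower for the transgene. Such counts were thus not particular to the CD8 label, and their share of all genes was not formed. Ide (chr19:37268743-37337852, minus strand), an insulin-degrading protease, had 60.1 CPM labelled CD8 KO, 19.2 in hom at 33 weeks, 25.8 in hom at 30 weeks and 25.1 in neg. The fold was 2.33 (1.59 to 3.47), from 98 UMIs in 51 cells labelled CD8 KO, so it did not rest on 1 cell. Other kept cells had 35.0, 18.8, 19.0 and 20.8 CPM, so the library labelled CD8 KO was highest there too. Npy, a neuropeptide, had 39.2, 28.4, 16.5 and 27.2 CPM, a fold of 2.38 (1.48 to 3.94). Adra1a, an adrenergic receptor, had 39.2, 30.5, 18.5 and 23.5 CPM, and Sat2, a polyamine acetyltransferase, had 25.7, 22, 10.6 and 15.1 CPM. For these 3 genes the library labelled CD8 KO was the highest of the 4 and hom at 30 weeks the lowest. Those 2 libraries also differed in sex. In male cells labelled CD8 KO over male cells at 33 weeks the fold of Sat2 was 0.951, so its direction turned round. Tac1 had 28.2 CPM labelled CD8 KO, with 58.7% of its UMIs in 1 cell.

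Genes lower in the library labelled CD8 KO than in hom at 30 weeks included X-linked genes that followed the sex of the cells. Ddx3x, an X-linked helicase, had 208, 237, 359 and 287 CPM in labelled CD8 KO, hom at 33 weeks, hom at 30 weeks and neg, and 211, 212, 315, 360, 213 and 388 CPM in the 6 sex-split sets, so every female set was above every male one. Kdm6a, an X-linked histone demethylase, had 19.6, 33.4, 47.5 and 36.9 CPM by library, with 19.1, 24.1 and 30.5 CPM in the male sets labelled CD8 KO, at 33 weeks and of neg, and 45.3, 48.0 and 50.1 CPM in the female sets at 33 weeks, at 30 weeks and of neg. Ezh2, a histone methyltransferase, had 11, 14.9, 28.4 and 26.8 CPM by library. Rasl11a had 16.6, 45.5, 50.9 and 50.7 CPM. These were chosen after their values were seen. The clock genes Nr1d1 and Per1 were lower, with 36.8 CPM of Nr1d1 labelled CD8 KO, 64.6 in hom at 33 weeks, 63.4 in hom at 30 weeks and 63.7 in neg, a fold of 0.58 (0.41 to 0.81), and 85.2, 106, 131 and 140 CPM of Per1, a fold of 0.65 (0.52 to 0.81). Of 15 clock genes 3 were lower and 0 higher, where 7.31% of all genes were lower and 7.01% higher. The time of day of collection is not given in the sources used here, and its part was not tested.

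The lowest ratios for the CD8 label were set by hom at 30 weeks. Car2 had 6.74 CPM labelled CD8 KO and 149 CPM in hom at 30 weeks, of which 96.0% came from 1 cell. Timp1, Ctse and Ube2c likewise had over 90% of their UMIs in 1 cell. Of all genes 7.01% were higher and 7.31% lower for the CD8 label, or 6.64% and 6.4% without cells holding markers of other types. The cell cycle list had 12 of 18 genes lower and 0 higher (median -1.01), and without cells holding markers of other types 1 of 11 was higher and 1 lower (median 0.01). Reactive glia genes had 11 of 32 lower and 1 higher, and without those cells 3 of 27 lower and 2 higher. Mitochondrial energy genes, chaperones and identity genes gave 0 of 40, 0 of 23 and 3 of 33 genes past 1.5-fold. Of 32 genes for junctions and transport 2 were higher and 3 lower, and of 26 for secreted proteins 1 was higher and 1 lower.

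The age ratio compared hom at 33 weeks with hom at 30 weeks, and its lists differed in how many genes passed 1.5-fold. Of 23 chaperones 1 was higher and 0 lower, where 6.65% of all genes were higher and 6.87% lower, and their median log2 ratio was 0.40 where all genes had 0.03. Ahsa2, a gene related to HSP90 activators that is not in the chaperone list, had 27.0 CPM labelled CD8 KO, 68.2 in hom at 33 weeks, 26.4 in hom at 30 weeks and 78.3 in neg, a fold of 2.58 (1.77 to 3.83) for age. By sex it had 22.9, 78.8, 59.1, 26.3, 120 and 11 CPM in the 6 sets, so neg again held the highest and the lowest. Wdpcp, a planar polarity effector needed for cilia, had 41.1, 55.4, 28.4 and 49.9 CPM, a fold of 1.95 (1.33 to 2.90), with 51.5 CPM in male and 63.0 in female cells at 33 weeks and 28.4 in female cells at 30 weeks. Zc2hc1c, Tmem37, Sesn1, Kif13b and Xrcc1 completed the named genes higher at 33 weeks, at 28.4 to 36.2 CPM against 12.6 to 16.5 CPM at 30 weeks. Of 27 genes for secreted proteins 2 were higher and 5 lower at 33 weeks, and of 31 for junctions and transport 1 was higher and 4 lower. These counts stand beside the 6.65% of all genes higher and 6.87% lower. None of the 5 genes Zc2hc1c to Xrcc1 had over 10% of its UMIs in 1 cell, and all had folds of 2.19 to 2.51.

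Immediate early genes, which cells switch on within minutes of a stimulus, were highly abundant in every library. Fos had 13139 CPM labelled CD8 KO, 13285 in hom at 33 weeks, 14224 in hom at 30 weeks and 14212 in neg. At 33 weeks 4 of 31 were lower and 0 higher than at 30 weeks, with a median of -0.23, where 6.87% of all genes were lower and 6.65% higher. Arc, a synaptic early gene, had 280, 151, 272 and 177 CPM, a fold of 0.56 (0.47 to 0.66) for age. Myc had 51.5, 22.7, 46.2 and 49.4 CPM, a fold of 0.49 (0.31 to 0.76). Dusp5, a phosphatase of the ERK pathway, had 165, 98.0, 182 and 135 CPM, but 174 in male and 37.4 in female cells at 33 weeks. Between male and female cells at 33 weeks 11 of 31 early genes were higher and 0 lower, where 7.82% of all genes were higher and 11.1% lower. Between female cells at 33 weeks and at 30 weeks 0 were higher and 7 lower, where 9.67% of 9176 genes were higher and 10.2% lower. Male cells at 33 weeks over female cells at 30 weeks gave 2 of 31 higher and 1 lower (median 0.03), where 6.56% of 9244 genes were higher and 11.8% lower, so the lower early genes were seen in female cells and not in male cells at 33 weeks. The lowest ratios for age again rested on 1 cell of hom at 30 weeks, with Myh11 at 0 CPM at 33 weeks (a count of 0 allows up to 2.13 CPM) and 40.3 CPM at 30 weeks, all from 1 cell.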

How the data were processed

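Single-cell suspensions of spinal cord, described in the labels as leukocytes and cord cells, came from 2 perfused mice per group by enzymatic dissociation and bead removal of myelin. The deposited values are UMI counts per gene and cell barcode in filtered matrices, made with Cell Ranger 6.0.1 per the file headers, on mm10 per the submitters' processing notes. Ambient RNA removal is not given in the sources used here. Human MAPT was not analysed here.

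Barcodes were kept from 500 UMIs and 200 genes on, where mitochondrial UMIs made up no more than 15% (20454 of 22644 barcodes), with 36331214 to 43531426 UMIs per library. Counts were summed over the members of each library and divided by their total (CPM). Intervals are exact Poisson for CPM, exact binomial (Clopper-Pearson) for shares and exact conditional binomial for folds. A count of 0 was given a limit of 3 counts. Doublet calls by scrublet were not used to remove members, except as an alternative. The members, lists and tests were chosen with earlier results of these data known. Named genes were the 8 highest and 8 lowest ratios after adding 5 CPM, for genes reaching 50 UMIs over both libraries and 20 CPM where higher, plus up to 4 members of each list. Genes from the sex-split sets and genes spread over many cells were chosen after their values were seen. Gene positions are from GENCODE M21 (mm10), where 32158 of 32285 identifiers (99.6%) were found, and promoters from RefSeq. Alternatives were other cell limits, thinning to 1000 UMIs, equal weight per cell, leaving out cells, cells of 1 sex, and TMM scaling. The count scripts were tested on simulated data. The versions were edgeR 4.0.16 (TMM factors only, no test), scanpy 1.11.5, scipy 1.17.1 and Python 3.11.15.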

Additional observations from a re-analysis of the deposited data

How the results depend on the processing

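No paired analysis was possible because each group had 1 library. TMM scaling moved none of its 90 values past the limits set. Shares of members were 1.91% labelled CD8 KO, 2.17% in hom at 33 weeks, 1.60% in hom at 30 weeks and 2.27% in neg with a mitochondrial limit of 10%, and 5.88%, 6.95%, 5.99% and 5.5% with blood, marrow and microglial cells left out of the total. With each cell weighted equally, the genes past 1.5-fold numbered 1180 higher for the transgene, 1502 lower for the transgene, 1153 higher for the CD8 label, 1245 lower for the CD8 label, 1201 higher for age and 1606 lower for age. The median log2 ratios were then for cell cycle -0.30 for the transgene, for oxidative phosphorylation 0.028 for the transgene, for identity 0.11 for the transgene, -0.045 for the CD8 label and -0.087 for age, for immediate early genes -0.00811 for the CD8 label and 0.023 for age, for cilium -0.075 for age, for chaperones 0.33 for age, and folds that turned round were for Ube2c 1.12 for age. With at least 4 selection genes, median log2 ratios were for cilium 0.069 for age, and folds that turned round were for A2m 0.308 for the transgene, 4.15 for the CD8 label and 4.2 for age, for Agt 0.641 for the transgene, 2.71 for the CD8 label and 3.67 for age, for Pla2g7 0.901 for the transgene, for Serpina3n 0.267 for the transgene, for Timp1 0.178 for the transgene, 3.61 for the CD8 label and 4.2 for age. With selection after thinning to 1000 UMIs, median log2 ratios were for oxidative phosphorylation 0.022 for the transgene, 0.12 for the CD8 label and 0.040 for age, for cell cycle 0.12 for the CD8 label and -0.17 for age, for cilium 0.040 for age, for chaperones 0.36 for age, and folds that turned round were for A2m 0.402 for the transgene, 4.4 for the CD8 label and 4.32 for age, for Agt 0.611 for the transgene, 2.87 for the CD8 label and 3.78 for age, for Car2 1.43 for the CD8 label and 1.35 for age, for Pla2g7 0.713 for the transgene, for Serpina3n 0 for the transgene, for Timp1 0.17 for the transgene, 3.83 for the CD8 label and 4.32 for age, for Ube2c 1.62 for age. In female members, the genes past 1.5-fold numbered 943 higher for the transgene. The median log2 ratios were then for cilium -0.12 for the transgene, for chaperones 0.083 for the transgene and 0.35 for age, for immediate early genes 0.19 for the transgene and -0.32 for age, for cell cycle 1.02 for the transgene, and folds that turned round were for Ahsa2 2.39 for the transgene, for Cxcl10 1.7 for the transgene, for Dnajb1 1.04 for the transgene, for Hspa1b 9.94 for the transgene, for Hsph1 1.08 for the transgene, for Nr4a2 1.66 for the transgene. In female members of hom at 30 weeks over male members of neg, median log2 ratios were for chaperones -0.93 for the transgene, for cell cycle -0.54 for the transgene, for oxidative phosphorylation 0.14 for the transgene, and folds that turned round were for Epas1 1.03 for the transgene. In male members labelled CD8 KO over male members at 33 weeks, median log2 ratios were for cilium -0.10 for the CD8 label, for chaperones -0.24 for the CD8 label, for cell cycle 0.12 for the CD8 label, and folds that turned round were for C3 1.19 for the CD8 label, for Car2 4.76 for the CD8 label, for Sat2 0.951 for the CD8 label, for Ube2c 2.85 for the CD8 label. Without cells holding markers of other types, median log2 ratios were for cell cycle -0.47 for the transgene, 0.011 for the CD8 label and 0.010 for age, for oxidative phosphorylation 0.00197 for the transgene, 0.14 for the CD8 label and 0.063 for age, for immediate early genes -0.30 for the CD8 label and -0.32 for age, for reactive glia 0.18 for the CD8 label, for cilium 0.020 for age, and folds that turned round were for A2m 0.295 for the transgene, 3.97 for the CD8 label and 4.03 for age, for Agt 0.614 for the transgene, 2.71 for the CD8 label and 3.52 for age, for Car2 1.35 for the CD8 label and 1.26 for age, for Mmp8 1.54 for the transgene, for Pla2g7 0.864 for the transgene, for Serpina3n 0.256 for the transgene, for Timp1 0.192 for the transgene, 3.61 for the CD8 label and 4.03 for age, for Ube2c 1.01 for age. Without the mixed cells alone, median log2 ratios were for cell cycle -0.47 for the transgene, 0.032 for the CD8 label and -0.012 for age, for oxidative phosphorylation 0.037 for the transgene and 0.032 for age, for immediate early genes -0.26 for the CD8 label, for cilium 0.062 for age, and folds that turned round were for Mmp8 1.49 for the transgene, for Ube2c 1.04 for age. Without the top cell of each gene, median log2 ratios were for cell cycle -0.47 for the transgene, -0.044 for the CD8 label and -0.24 for age, and folds that turned round were for Ube2c 1.6 for age. With doublet calls removed, median log2 ratios were for cell cycle 1.07 for the transgene. For Serpina3n, Ifit1 and Tac1 some settings gave no ratio because 1 library had no UMI left. The cause was not tested. With 100 to 158 members per library and 1 library per group, the spread between animals could not be measured and low genes could not be resolved.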

Other observations

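Hox genes, which mark position along the body axis, differed in level between the members of the libraries. Summed over paralogue groups 10 to 13, of the caudal cord, members had 119 CPM (103 to 137) labelled CD8 KO, 78.8 (64.8 to 94.9) in hom at 33 weeks, 67.4 (54.9 to 81.8) in hom at 30 weeks and 103 (90.2 to 116) in neg. Groups 4 to 7 had 605, 638, 664 and 563 CPM in the same order. Endothelial cells had 11.8, 8.24, 7.01 and 7.62 CPM of groups 10 to 13. The part of cord level in the differences between libraries was not tested.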
